A study of Homo sapiens with 6 samples.

Results

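The peroxiredoxins and the thioredoxin system are 10 of the 17297 genes counted in this RNA-seq data set. They were taken by gene symbol and are the 6 peroxiredoxins (PRDX1, PRDX2, PRDX3, PRDX4, PRDX5 and PRDX6), the 2 thioredoxins (TXN and TXN2) and the 2 thioredoxin reductases (TXNRD1 and TXNRD2). All 10 were in the table. The samples were LNCaP cells, a long-established line of human prostate cancer. One stable line carried the empty retroviral vector (pBabe-vector) and the other carried GNA13 cDNA in the same vector (pBabe-Gα13), both maintained in puromycin. The study asked how Gα13, a G protein α subunit, bears on clonogenic growth and on tolerance of oxidative metabolic stress. RNA from 3 biological replicates of each line, plated for 48 h without any further treatment, was sequenced. Because each condition is 1 stable line, the transgene and any other difference between the lines cannot be told apart, and the p-values measure the spread between cultures of these lines.

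Peroxiredoxins are abundant enzymes that reduce hydrogen peroxide and organic peroxides through a reactive cysteine. Thioredoxin reduces the oxidised cysteines of most peroxiredoxins again, and thioredoxin reductase, a selenoprotein, recharges thioredoxin with electrons from NADPH. The cytosol and the mitochondrion each have their own thioredoxin and reductase. In prostate cancer cells this chain is known as one of the main routes by which peroxide made by metabolism is removed.

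With the replicates paired, TXN, the cytosolic thioredoxin, was 21.3% higher in pBabe-Gα13. TXNRD2 and TXN2, the mitochondrial reductase and thioredoxin, fell by 18.5% and 15.1%. PRDX2 fell by 13.6%, PRDX5 fell by 12.8% and PRDX4 fell by 12.7%. With each chromosome also centred on its own median, TXN was 11.5% higher, TXNRD2 fell by 11.0% and PRDX2 fell by 13.3%. The calls of TXN2, PRDX4 and PRDX5 were lost there (edgeR adjusted p = 0.187, 0.0527 and 0.0568). TXNRD1 was called lower only relative to chromosome 12, whose genes were shifted by 0.29 on the log2 scale toward pBabe-Gα13. Before centring, its paired difference was −0.05 on the log2 scale (edgeR adjusted p = 0.599). PRDX1, PRDX3 and PRDX6 passed in neither of these fits. None of the 10 passed without the pairing, where 0.139% of all genes did. In bulk RNA, a change in the share of cells and a change in RNA per cell cannot be told apart. The differences were small beside that of GNA13, which was at 818 ± 69.6 CPM in pBabe-Gα13 and 70.5 ± 5.72 CPM in pBabe-vector (mean ± SD, n = 3), with a difference of 3.54 on the log2 scale (edgeR adjusted p = 9.12e-05).

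Libraries held 33002160 to 40628970 counts, and the 10 genes had between 3059 and 20209 counts in each. CPM is the count of a gene relative to the library size after TMM scaling. Adjusted p-values are those of the edgeR quasi-likelihood fit, corrected over all 17297 genes by the Benjamini-Hochberg method, and a gene was called at an adjusted p under 0.05. Libraries are named std, replicate 2 and replicate 3 after the column headings, and same-named libraries of the lines varied together, so each result is also given with these 3 pairs as a block. Of 9 luminal prostate markers, including KLK3 (1836 to 4204 CPM), all 9 were expressed, with a summed level of 6424 to 9175 CPM in pBabe-Gα13 and 5546 to 8228 CPM in pBabe-vector. The blocked fit called 4 of them higher (KLK2, KLK3, KRT8 and KRT18) and 0 lower, and the fit without the block called 0. Of 9 markers of other cells, 6 were in the table and summed to 28.7 to 36.3 CPM in pBabe-Gα13 and 20.3 to 33.7 CPM in pBabe-vector. The blocked fit called 3 of these 6 higher and 1 lower, and the fit without the block called 0. KRT5 was at 0 in both replicate 2 libraries. Their part in the results below was not tested.

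Promoter sequence is shown for TXN and the reductases, because TXN and TXNRD2 had the highest and the lowest fold change of the 10 genes and TXNRD1 is the other reductase. Each sequence is the 250 bases before a RefSeq start site in GRCh38.p14, read 5′ to 3′ on the gene's strand. The windows were TXN at chr9:110256508-110256757 (minus strand), TXNRD1 at chr12:104215529-104215778 (plus strand) and TXNRD2 at chr22:19941819-19942068 (minus strand). Capitals mark TATAAA or its reverse complement in TXN, and in TXNRD1 they mark TGACNNNGC, the core of the antioxidant response element bound by NRF2.
TXN: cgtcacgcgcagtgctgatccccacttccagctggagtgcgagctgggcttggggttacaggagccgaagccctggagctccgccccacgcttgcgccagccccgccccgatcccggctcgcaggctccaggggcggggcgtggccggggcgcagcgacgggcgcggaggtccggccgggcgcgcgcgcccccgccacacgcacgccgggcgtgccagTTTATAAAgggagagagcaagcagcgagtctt
TXNRD1: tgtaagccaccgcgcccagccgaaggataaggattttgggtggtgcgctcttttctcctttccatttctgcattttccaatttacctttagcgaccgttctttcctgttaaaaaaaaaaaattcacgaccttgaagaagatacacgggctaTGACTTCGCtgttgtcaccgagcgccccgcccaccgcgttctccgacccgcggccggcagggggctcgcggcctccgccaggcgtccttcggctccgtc
TXNRD2: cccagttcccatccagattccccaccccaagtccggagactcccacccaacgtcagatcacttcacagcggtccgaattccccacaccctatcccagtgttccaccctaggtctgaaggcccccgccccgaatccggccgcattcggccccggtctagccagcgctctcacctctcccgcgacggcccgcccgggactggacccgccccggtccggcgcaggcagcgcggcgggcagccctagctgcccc

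The TXN window was 73.6% G and C, and its TATA letters, which match on both strands and overlap, began 32 bases before the start. The TXNRD1 window was 56.4% G and C, and its response element core began 99 bases before the start. A second listed TXNRD1 start also had the core in its window. TXNRD2 had neither motif in the window shown, which was 70.0% G and C, while the window of another listed TXNRD2 start had TATA letters 120 bases before it. Of the 10 genes, 7 had a listed promoter, and TXNRD1 was the only one of these 7 with the core. On either strand, the core occurs in 10.9% and TATAAA in 10.7% of the 35116 promoter windows of this length. These letter matches are descriptions of the windows and were not tested for binding.

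TXN (chromosome 9, 110243810 to 110256507 in Gencode 44, GRCh38, as for all positions below) was measured at 159, 141 and 169 CPM in the std, replicate 2 and replicate 3 libraries of pBabe-Gα13. In pBabe-vector it was at 128, 125 and 134 CPM in the same order. Every pBabe-Gα13 library was above every pBabe-vector library. The means were 157 ± 14.1 and 129 ± 4.73 CPM (SD, n = 3), and the log2 fold change was 0.28 (SE 0.10, 95% interval 0.05 to 0.51). Its adjusted p was 0.462 without the block and 0.000298 with it. Within pairs, the log2 difference was 0.32, 0.18 and 0.34. Genes of chromosome 9 were shifted by 0.12 on the log2 scale toward pBabe-Gα13 as a whole. Relative to that shift TXN was 0.16 higher, and the blocked fit still called it (edgeR adjusted p = 0.0397).

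TXN2 (chromosome 22, 36467046 to 36481640) encodes the mitochondrial thioredoxin, which serves PRDX3 and PRDX5. It was at 124, 105 and 132 CPM in the std, replicate 2 and replicate 3 libraries of pBabe-Gα13 and at 137, 134 and 154 CPM in those of pBabe-vector. The groups did not overlap, although the highest pBabe-Gα13 library and the lowest pBabe-vector library were close. TXN2 had a fold change of −0.23 on the log2 scale (SE 0.12, 95% interval −0.50 to 0.04; adjusted p = 0.697, or 0.00205 with the block). The direction of TXN2 was thus opposite to that of TXN in all 3 pairs, with log2 differences of −0.15, −0.35 and −0.22.

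TXNRD2 (chromosome 22, 19875517 to 19941820) encodes the reductase that recharges TXN2. Its level was 101, 115 and 88.9 CPM in pBabe-Gα13 and 124, 136 and 112 CPM in pBabe-vector, in the same library order. Here the groups overlapped, since the replicate 2 library of pBabe-Gα13 lay above the replicate 3 library of pBabe-vector, yet each pair had the lower value in pBabe-Gα13. The log2 differences within pairs were −0.31, −0.25 and −0.33. TXNRD2 had the lowest fold change of the 10 genes, −0.29 on the log2 scale (SE 0.13, 95% interval −0.59 to 0.0017), with an adjusted p of 0.593 that became 0.000120 with the block.

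Both mitochondrial genes lie on chromosome 22, whose genes were shifted by −0.13 on the log2 scale in pBabe-Gα13. Relative to that shift TXNRD2 was at −0.17 (edgeR adjusted p = 0.0257 with the block) and TXN2 at −0.11, where it was no longer called (0.187).

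TXNRD1 (chromosome 12, 104215779 to 104350307) encodes the cytosolic reductase that recharges TXN and is a known NRF2 target, as is TXN. It had the highest CPM of the 10 genes in 4 of 6 libraries, with 485, 414 and 424 CPM in pBabe-Gα13 and 482, 457 and 425 CPM in pBabe-vector. The std and replicate 3 pairs were almost level and the replicate 2 pair was lower in pBabe-Gα13. The fold change of TXNRD1 was −0.04 on the log2 scale (95% interval −0.30 to 0.21) and was not called with the block either (adjusted p = 0.991 and 0.599). Genes of chromosome 12 were shifted by 0.29 toward pBabe-Gα13, the largest shift of any chromosome. Against its chromosome, TXNRD1 was at −0.33 and called lower with the block (edgeR adjusted p = 2.27e-05), so its call depended on whether chromosomes were centred.

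**Figure D1:**
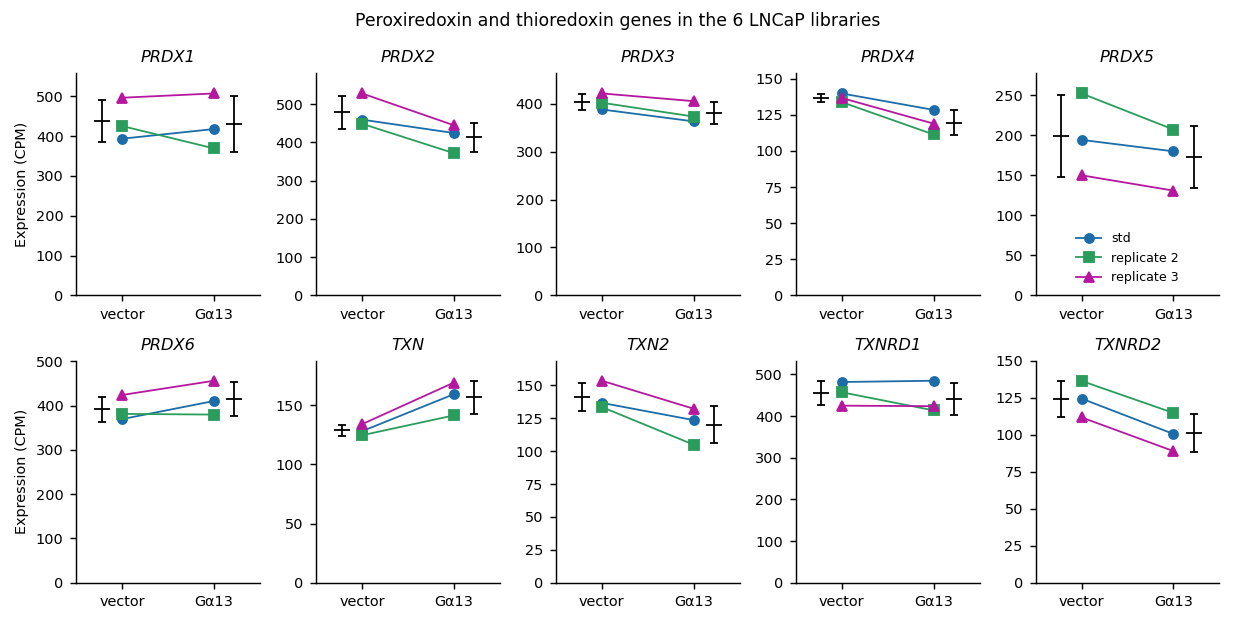
Each panel plots the CPM of 1 gene (y axis, from 0) in pBabe-vector and pBabe-Gα13, with 1 line per pair of same-named libraries and the mean ± SD of 3 libraries beside them. All 3 lines rise for TXN (125 to 134 CPM against 141 to 169 CPM), and all 3 fall for PRDX2, PRDX3, PRDX4, PRDX5, TXN2 and TXNRD2.

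Among the peroxiredoxins, PRDX2 (chromosome 19, 12796820 to 12801800) encodes a cytosolic enzyme. It was at 425, 372 and 445 CPM in the std, replicate 2 and replicate 3 libraries of pBabe-Gα13 and at 460, 449 and 528 CPM in pBabe-vector. The lines did not overlap, with a narrow gap between 445 and 449 CPM. PRDX2 differed by −0.21 on the log2 scale (SE 0.12, 95% interval −0.48 to 0.06; adjusted p = 0.733, or 0.00329 with the block). Chromosome 19 hardly shifted (−0.0049), and with chromosomes centred the blocked fit still called PRDX2 (−0.21, edgeR adjusted p = 0.00448). Of the exon length of PRDX2, 12.1% is shared with a long noncoding RNA gene on the opposite strand, which was not among the counted genes. The use of strand in counting is not given in the sources used here, so reads in the shared bases cannot be assigned.

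PRDX4 (X chromosome, 23664262 to 23686397) encodes the peroxiredoxin of the endoplasmic reticulum. Its values were 128, 111 and 119 CPM in pBabe-Gα13 and 140, 134 and 137 CPM in pBabe-vector, which is the tightest spread in pBabe-vector of the 10 genes (137 ± 3.00 CPM, n = 3). No library of pBabe-Gα13 reached any library of pBabe-vector. PRDX4 differed by −0.19 on the log2 scale (SE 0.09, 95% interval −0.41 to 0.02; adjusted p = 0.653, or 0.00807 with the block). With chromosomes centred it was −0.15 and not called (edgeR adjusted p = 0.0527 with the block).

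PRDX5 (chromosome 11, 64318121 to 64321811) encodes an enzyme found in mitochondria, peroxisomes and cytosol. It varied most between cultures: 180, 207 and 131 CPM in pBabe-Gα13 and 194, 253 and 150 CPM in pBabe-vector. In both lines replicate 2 was highest and replicate 3 lowest, and the groups overlapped widely. Within every pair pBabe-Gα13 was lower, by a log2 difference of −0.11, −0.28 and −0.20. On the log2 scale PRDX5 differed by −0.20 (SE 0.23, 95% interval −0.73 to 0.32; adjusted p = 0.926). With the block its SE was 0.05 and its adjusted p 0.00753, a call that was lost with chromosomes centred (−0.14, edgeR adjusted p = 0.0568).

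PRDX3 (chromosome 10, 119167720 to 119178812), the mitochondrial peroxiredoxin that TXN2 reduces, was at 363, 373 and 405 CPM in pBabe-Gα13 and at 388, 402 and 421 CPM in pBabe-vector. Each pair was slightly lower in pBabe-Gα13 and the groups overlapped. Its difference of −0.09 on the log2 scale had an interval of −0.31 to 0.14 without the block and −0.19 to 0.01 with it (adjusted p = 0.929 and 0.246). Of the mitochondrial chain of reductase, thioredoxin and peroxiredoxin, then, the blocked fit called TXNRD2 and TXN2 lower and did not call PRDX3. It also called PRDX5, the other peroxiredoxin that TXN2 serves, lower (edgeR adjusted p = 0.00753). After chromosomes were centred, TXNRD2 was the only one of these genes still called (edgeR adjusted p = 0.0257 with the block). Whether PRDX3 differs from TXN2 or TXNRD2 in its response was not tested.

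PRDX1 (chromosome 1, 45510914 to 45542732), a cytosolic enzyme and a known NRF2 target, was at 418, 369 and 507 CPM in pBabe-Gα13 and at 394, 425 and 496 CPM in pBabe-vector. The std and replicate 3 pairs were higher in pBabe-Gα13 and the replicate 2 pair was lower. PRDX1 differed by −0.02 on the log2 scale (95% interval −0.37 to 0.32; adjusted p = 1), and the blocked interval was −0.14 to 0.08 (0.784). Of its exon length, 29.8% is shared with MMACHC on the opposite strand. Whether strand was used in counting is not given in the sources used here, so reads in the shared bases cannot be assigned. MMACHC, named after its values were seen, was lower in level at 46.3 ± 6.46 and 48.2 ± 5.60 CPM in pBabe-Gα13 and pBabe-vector (n = 3).

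PRDX6 (chromosome 1, 173477330 to 173488815) encodes the peroxiredoxin with a single catalytic cysteine, which is reduced by glutathione rather than thioredoxin. It was at 411, 380 and 456 CPM in pBabe-Gα13 and at 369.7, 381 and 424 CPM in pBabe-vector. The groups overlapped, and 2 of 3 pairs were higher in pBabe-Gα13. PRDX6 differed by 0.09 on the log2 scale (95% interval −0.17 to 0.34; adjusted p = 0.954), or 0.08 with the block (0.281). Summed over the 6 peroxiredoxins, the level was 1924, 1812 and 2063 CPM in pBabe-Gα13 and 1945, 2044 and 2157 CPM in pBabe-vector. The groups overlapped in this sum, and pBabe-Gα13 was the lower library of each pair.

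**Figure D2:**
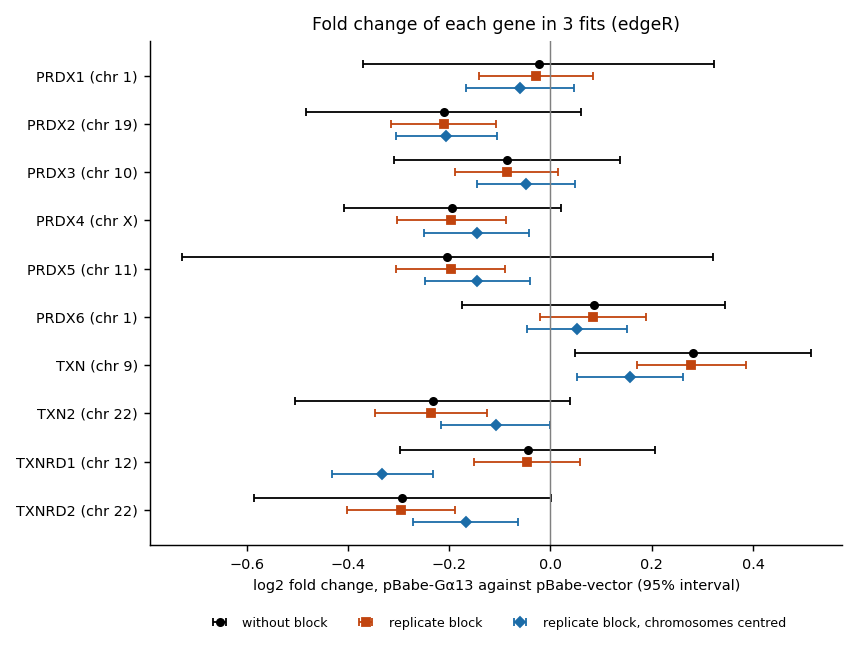
Log2 fold change of each gene, pBabe-Gα13 against pBabe-vector, with its 95% interval from edgeR without the block, with the replicate block, and with the block after each chromosome was centred on its median. With the block, the intervals of TXN, TXNRD2, TXN2, PRDX2, PRDX4 and PRDX5 exclude 0, and after centring TXNRD1 moves from −0.05 to −0.33.

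Counted over the 10 genes, 0 were called without the block, where 0.139% of all genes were. At an unadjusted p under 0.05 there was 1 (TXN), against 8.46% of all genes. DESeq2 and limma-trend without the block also called 0 of the 10. The blocked fit called 6, against 19.7% of all genes and 29.7% of the 2302 genes with a mean of at least 100 CPM, a level that all 10 reach. Of these 6, 1 was higher, near the 9.32% of all genes called higher, and 5 were lower, where 10.4% of all genes were. With chromosomes centred as well, 4 were called (TXN higher and PRDX2, TXNRD1 and TXNRD2 lower), against 14.1% of all genes. The median log2 fold change of the 10 was −0.14 with the block, −0.0026 over all genes and −0.04 over the genes of at least 100 CPM.

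The direction was the same in 3 of 3 pairs for 7 of the 10 genes, 1 higher and 6 lower, and this held for 48.0% of all genes. The lines did not overlap for 4 (TXN, TXN2, PRDX2 and PRDX4), against 14.1% of all genes. These shares cover genes of any level and were not taken for genes of at least 100 CPM. For each of these 4 the exact two-sided permutation p was 0.10, the smallest that 3 against 3 libraries can give, so no gene could pass 0.05 in that test. The other 6 had exact permutation p-values of 0.20 (TXNRD2) to 0.90 (PRDX1). Of 8 fits with the block, which differ in the tool, a correction or a pair left out, TXNRD2 was called in 8 and TXN in 7. PRDX2 and TXN2 were called in 6, PRDX4 in 4, PRDX5 in 3 and TXNRD1 in 1. PRDX1, PRDX3 and PRDX6 were called in 0.

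Cultures differed from pair to pair in many of these genes. Splitting the sum of squares of log2 CPM, the pair accounted for 88.5% in PRDX5 and 84.9% in PRDX1, and the line for 10.2% and 0.767%. TXN and PRDX4 were at the other end, with 74.3% and 71.4% for the line and 21.3% and 22.3% for the pair. The line had the larger share in 5 genes and the pair in 5. The median share of the line was 42.3% over the 10 and 12.4% over 12778 expressed genes (mean log2 CPM above 1). For the pair the medians were 53.9% and 71.7%. These shares are descriptions of 6 libraries. The pair has 3 levels and the line 2, so unstructured variation alone gives the pair the larger share. The 12778 genes were not limited to those of at least 100 CPM, a level that all 10 members reach.

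**Figure D3:**
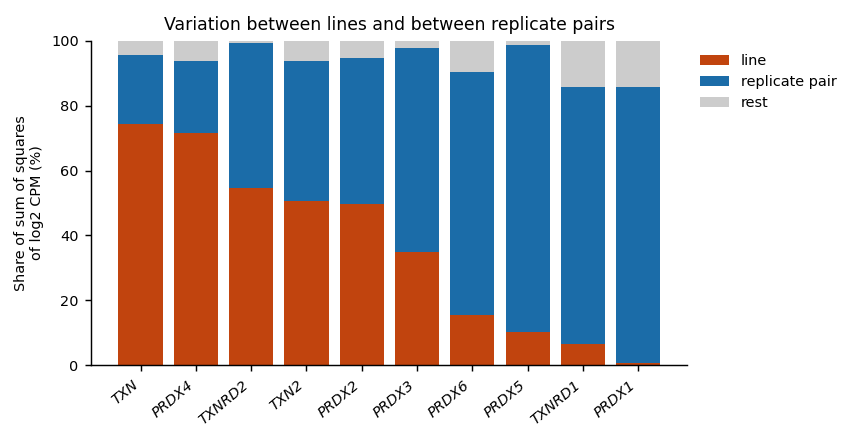
Stacked bars give the share (%) of each gene's sum of squares of log2 CPM, over 6 libraries, that lies between the lines, between the replicate pairs and in the rest. The line share runs from 74.3% in TXN to 0.767% in PRDX1, and PRDX5 is almost all pair (88.5%).

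Levels of different genes were compared per kilobase of exon in pBabe-vector. PRDX1 stood at 261 ± 31.3, PRDX2 at 235 ± 21.1, PRDX5 at 231 ± 59.7 and PRDX6 at 169.5 ± 12.4 CPM per kilobase (SD, n = 3), and neighbours in this order overlapped. TXN (128 ± 4.68) and PRDX3 (119 ± 4.97) came next and overlapped each other, but not PRDX6. TXN2 (85.6 ± 6.52), PRDX4 (73.7 ± 1.62), TXNRD1 (67.8 ± 4.25) and TXNRD2 (15.1, range 13.6 to 16.6) followed without overlap between neighbours. In pBabe-Gα13 the order was the same except that TXNRD1 (65.7) and PRDX4 (64.4) changed places, and they overlapped there. TXN moved up to 155 ± 13.9 CPM per kilobase, by its mean still between PRDX6 (179.9 ± 16.6) and PRDX3 (113 ± 6.52). In pBabe-Gα13 its libraries overlapped those of PRDX6 (140 to 167 against 164 to 197), and TXN2 overlapped TXNRD1 and PRDX4. The order depends on the length used: with the longest coding transcript PRDX2 was first in pBabe-vector, at 518 CPM per kilobase, followed by PRDX1 at 338 and PRDX3 at 259.8. TXNRD2 was last with either length, at 39.4 CPM per kilobase with the longest coding transcript.

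**Figure D4:**
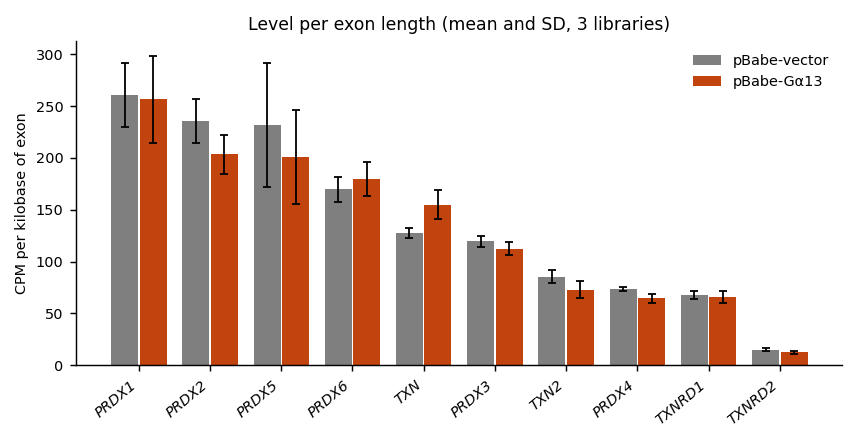
Bars show the mean level per kilobase of exon (CPM per kilobase, y axis from 0) in pBabe-vector and pBabe-Gα13, and error bars the SD of 3 libraries. PRDX1 is highest at 261 and TXNRD2 lowest at 15.1 in pBabe-vector, and TXN is at 128 against 155 in pBabe-Gα13.

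Genes related to this system were counted in 7 lists of 85 genes, all in the table. The lists run from thioredoxin partners to NRF2 and its other targets, and not all of these genes work with thioredoxin. Without the block edgeR and limma-trend called 0 of the 85, and 4 had an unadjusted p under 0.05 by edgeR. DESeq2 called 1, which was GPX8. The blocked fit called 6 of them higher and 16 lower, beside 9.32% and 10.4% of all genes. That total of 22 was 21 with chromosomes centred, 11 by DESeq2 with the block and 2 by limma-trend with the block. Among 11 regulators and partners, 2 were higher and 0 lower, both of them sestrins, which are stress-induced proteins linked to the handling of peroxide. SESN1 was at 85.4, 89.0 and 83.7 CPM in pBabe-Gα13 and 69.8, 70.9 and 62.8 CPM in pBabe-vector, with no overlap. Its log2 fold change was 0.34 (adjusted p = 0.325, or 1.91e-05 with the block), against 0.23 for SESN2 with the block (0.00526) and 0.12 for SESN3 (0.215). SRXN1, the sulfiredoxin that repairs overoxidised peroxiredoxins, was at −0.09 on the log2 scale (adjusted p = 0.449 with the block), which became 0.11 with chromosomes centred. TXNRD3, a further thioredoxin reductase, was at 0.03 (0.870 with the block).

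TXNIP, which binds and inhibits thioredoxin, was set apart by 1 library. Its level was 164, 19.5 and 140 CPM in the std, replicate 2 and replicate 3 libraries of pBabe-Gα13 and 157, 230 and 114 CPM in pBabe-vector. The replicate 2 pair thus differed by −3.56 on the log2 scale, while the std and replicate 3 pairs differed by 0.06 and 0.30. Over all libraries TXNIP was at −0.63 on the log2 scale (SE 0.65, adjusted p = 0.913), or −0.85 with the block (0.100). Without the replicate 2 pair it was 0.18 (edgeR adjusted p = 0.0444 with the block), so even its direction rested on that pair. Without the replicate 3 or the std pair it was −1.60 or −1.48 and called in each fit. In the same replicate 2 pair, the log2 difference was 0.18 for TXN and −0.27 for PRDX2, which lay in the direction of the other pairs.

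Glutaredoxins, which reduce glutathionylated proteins, and methionine sulfoxide reductases, which take electrons from thioredoxin, held 9 genes, of which 0 were higher and 2 lower with the block. GLRX was at 5.22, 4.73 and 5.17 CPM in pBabe-Gα13 and 6.08, 8.03 and 7.14 CPM in pBabe-vector. GLRX differed by −0.49 on the log2 scale (adjusted p = 0.429, or 0.00784 with the block), and GLRX3 by −0.17 (0.850, or 0.0203 with the block). The call of GLRX3 was lost with chromosomes centred (−0.13, edgeR adjusted p = 0.0914). GSR, glutathione reductase, and MSRA were not called (−0.08 and −0.25, adjusted p = 0.299 and 0.0936 with the block). Of 3 subunits of ribonucleotide reductase, an enzyme that thioredoxin reduces during DNA synthesis, 0 were called. RRM2 was at −0.10 on the log2 scale (0.205 with the block), but with chromosomes centred it was at −0.19 and called lower (edgeR adjusted p = 0.0255).

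NADPH is the source of electrons for both reductases, and its supply was represented by 16 genes of the pentose phosphate pathway and of other enzymes that make NADP or reduce it. Of these, 2 were higher and 6 lower with the block. ME1, the cytosolic malic enzyme, was at −0.41 on the log2 scale (0.785, or 1.5e-05 with the block), while IDH1, the cytosolic isocitrate dehydrogenase, was at 0.22 (0.910, or 0.00198 with the block). With chromosomes centred IDH1 was at 0.14 and not called (edgeR adjusted p = 0.0504). The list thus held called genes in both directions, and its median with the block was −0.09. Both reductases need selenocysteine, and of 8 genes for its incorporation 1 was higher and 1 lower with the block. They were SEPSECS, which makes selenocysteyl-tRNA (0.25, adjusted p = 0.816, or 0.00903 with the block), and SECISBP2, which reads the selenocysteine signal in mRNA (−0.22, 0.841, or 0.0119).

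Thiol oxidation in the endoplasmic reticulum, where PRDX4 acts, was represented by 20 genes, of which 0 were higher and 4 lower with the block. GPX8, a peroxidase of that compartment, had the largest difference of them, at 10.6 ± 2.41 CPM in pBabe-Gα13 and 27.1 ± 5.32 CPM in pBabe-vector (SD, n = 3). Its log2 fold change was −1.35 (adjusted p = 0.106, or 1.53e-11 with the block). QSOX1, a sulfhydryl oxidase, and TMX1, a membrane thioredoxin-like protein, were lower by less, at −0.18 (0.751, or 0.0249 with the block) and −0.15 (0.778, or 0.0365). The call of TMX1 was lost with chromosomes centred (−0.11, edgeR adjusted p = 0.150) and with GC and length corrected (0.0548). Among 18 genes for NRF2, its repressor KEAP1 and other NRF2 targets, 1 was higher and 3 lower with the block. NQO1, a quinone reductase, was at 0.29 on the log2 scale (adjusted p = 0.605, or 0.000353 with the block), beside TXN at 0.28. SLC7A11, which imports cystine, was at −0.33 without the block (0.966) and −0.28 with it (0.000702), and EPHX1, an epoxide hydrolase, was at −0.22 (0.692, or 0.00227). Of the 3 genes described above as known NRF2 targets, the blocked fit called TXN higher and called neither TXNRD1 nor PRDX1. With chromosomes centred as well, TXN was still called higher (0.16, edgeR adjusted p = 0.0397) and TXNRD1 was called lower relative to its chromosome (−0.33, edgeR adjusted p = 2.27e-05). Of the genes named from these lists, GPX8 and SESN1 were called in 8 of the 8 blocked fits, and ME1, NQO1, SLC7A11 and EPHX1 in 7. SESN2 and IDH1 were called in 6, GLRX, SEPSECS and SECISBP2 in 5, QSOX1 in 4, GLRX3 in 3 and TMX1 in 1.

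**Figure D5:**
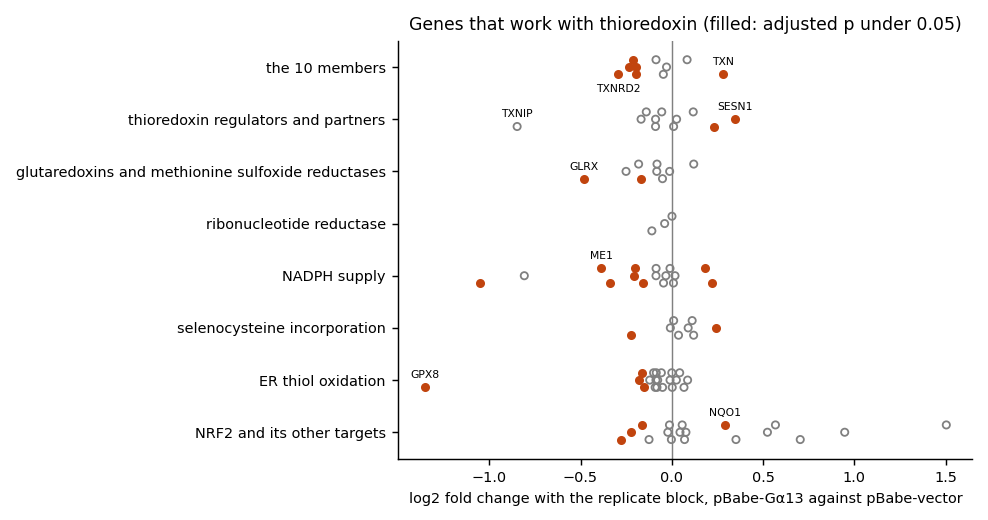
Log2 fold change with the replicate block (x axis, pBabe-Gα13 against pBabe-vector) of the 10 genes and of each list of related genes. Each point is 1 gene, filled where the edgeR adjusted p was under 0.05. Of the 85 listed genes 6 filled points lie above 0 and 16 below, and GPX8 (−1.35) and SESN1 (0.34) are at the ends of the called genes that are labelled.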

How the data were processed

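LNCaP cells with pBabe-vector or pBabe-Gα13 were sequenced (3 libraries each, paired-end reads of 150 nucleotides). The authors deposited raw counts per gene symbol, in whole numbers, made with FastQC 0.11.7, STAR on Gencode 38 and featureCounts. The version of STAR is not given in the sources used here. The file name and the study's methods speak of CPM, but the counts had not been normalized. Counts were scaled by TMM and fitted over 17297 genes, without a filter, by edgeR 4.0.16 (glmQLFit and glmQLFTest, R 4.3.3), with the line as the only term. Totals were 33002160 to 40628970, and 3 counts equal 0.0715 to 0.0935 CPM, which covers counting error only. All 6 columns were used.

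Headings gave 3 pairs of libraries: std, replicate 2 and replicate 3. The std heading of pBabe-Gα13 repeats the number of replicate 2, so that library is tied to its line and the tag only. Deviations from the group means correlated at 0.659, 0.807 and 0.888 within pairs and −0.736 to 0.125 across them over 12778 genes. The deviations of a line cancel out for each gene, so positive values within pairs make those across pairs negative on average. Each call that a block for the pair changes is therefore given both ways. Chromosomes were centred per library on the median of genes with a mean log2 CPM over 1.

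Alternatives were DESeq2 1.42.0, limma-trend (limma 3.58.1, prior count 2), filterByExpr, RLE factors, the block with each correction, and leaving out libraries or pairs. The newer edgeR quasi-likelihood method and DESeq2 with the block were added after the data were seen. Exact permutation tests used SciPy 1.17.1 (Python 3.11.15).

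Genes were placed with Gencode 44, which matched 14397 of 17297 symbols (83.2%), all 10 members included. Promoters are from RefSeq. The genes named are the 10 members, GNA13, partners named by role, and up to 3 called genes per list with the smallest p in the blocked fit. Some genes under this rule are not reported here. The members and lists were chosen with earlier results of these data known.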

Additional observations from a re-analysis of the deposited data

How the results depend on the processing

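Without a block, DESeq2, limma-trend, RLE factors, filterByExpr, centred chromosomes, the newer edgeR method and each left-out library called 0 of the 10 members, as edgeR did. Over all genes edgeR called 24, DESeq2 271 and limma-trend 5, and leaving out 1 library gave 2 to 15. With the replicate block 3407 genes and 6 members were called. Blocked limma-trend called 433 genes and 1 member (TXNRD2), blocked DESeq2 2000 and 6, the block with chromosomes centred 2442 and 4, and with GC and length corrected 3380 and 5 (PRDX5 lost, adjusted p = 0.0536). Fits of 2 pairs, which leave 1 residual degree of freedom per gene, gave 3266 genes and 6 members without the std pair. Without the replicate 2 pair they gave 2550 and 4 (PRDX4 and PRDX5 lost, 0.0687 and 0.0822), and without the replicate 3 pair 2250 and 3 (PRDX2, PRDX4 and PRDX5 lost, 0.0637, 0.0831 and 0.0668). The cause of these losses was not tested.

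Directions that reversed were those of differences near 0 or with a wide spread. Without the replicate 2 pair, the blocked log2 fold change was 0.054 for PRDX1 and 0.18 for TXNIP. SRXN1 was 0.11 with chromosomes centred, with or without the replicate block. Leaving out 1 library at a time and without the block, log2 fold changes ranged from −0.15 to 0.077 for PRDX1, −0.37 to 0.0044 for PRDX5, −0.19 to 0.039 for SRXN1, −0.040 to 0.10 for TXNRD3 and −0.16 to 0.027 for GSR. The ranges were −0.50 to 0.34 for RRM2, −0.70 to 0.0057 for SLC7A11, −0.048 to 0.45 for SESN2, −0.011 to 0.22 for SESN3 and −0.50 to 0.016 for MSRA. PRDX5 reversed without the replicate 2 library of pBabe-vector. The other 8 members kept their direction in every fit. The members had 3059 counts or more in each library, but MSRA had only 233 to 412.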

Other observations

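Some of the members and listed genes differed far more between cultures than between the lines, as most expressed genes did by their median shares. RRM2, a subunit of ribonucleotide reductase that is made in S phase, was at 103, 58.1 and 160.5 CPM in the std, replicate 2 and replicate 3 libraries of pBabe-Gα13. In pBabe-vector it was at 99.3, 70.1 and 175 CPM, so that replicate 3 was highest and replicate 2 lowest in both lines. The pair accounted for 97.7% of its sum of squares of log2 CPM, where the median over 12778 expressed genes was 71.7%. SLC7A11 had the lowest value of each line in replicate 3 (101 and 108 CPM), where the std libraries were at 269.8 and 361 CPM, and the pair accounted for 95.4%. PRDX5, with 88.5%, also had its lowest value of each line in replicate 3, but its highest was in replicate 2 rather than in the std library.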
